A study of Arabidopsis thaliana with 24 samples.

Results

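The comparison described here asked how much of the transcript response to auxin in Arabidopsis thaliana seedlings that lack ARF19 is lost when ARF7 is lost as well. It rests on 12 of the 24 arrays of the study, 3 in each of 4 groups: arf19-1 and the nph4-1 arf19-1 double mutant, each with and without IAA, which is indole-3-acetic acid, the main natural auxin. For each probe set, the IAA response of a line is the mean log2 signal with IAA minus that without. The quantity tested, called the ARF7 share here, is the response of the double mutant minus the response of arf19-1. A negative value is a rise that was smaller, or a fall that was larger, in the double mutant, and a positive value is the reverse.

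Seedlings spent 7 days in a liquid medium that held 1.5% sucrose, with 16 h of light and 8 h of dark per day. They then received 5 µM IAA or its ethanol solvent for 2 h at 24 °C. All plants were of the Columbia ecotype, and both lines compared carry arf19-1, a mutant allele of ARF19. nph4-1 is a mutant allele of ARF7, the gene also called NPH4. The other 12 arrays hold Col (the wild type) and nph4-1, with and without IAA, and give the same contrast with ARF19 present.

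Auxin acts in the nucleus by bringing Aux/IAA repressors to the TIR1/AFB receptors for degradation, which frees auxin response factors (ARFs) bound at target genes. ARF7 and ARF19 are closely related activating ARFs, known for lateral root formation and for the bending of hypocotyls towards light and gravity. Their known targets include the Aux/IAA and GH3 genes, which dampen the signal, and the LBD transcription factors, which start lateral roots.

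Signal was read on Affymetrix probe sets and deposited on a log2 scale with a floor at 5.64, which is 50 in linear units. On the 12 arrays, 36.1% to 36.6% of the values lay at the floor, array medians ran from 6.66 to 6.71, and replicates of a group correlated at 0.982 to 0.996 across probe sets. The annotation used pairs ARF7 and ARF19 with no probe set, and the targeted genes were not analysed here. Of the seedling markers, the light-harvesting gene LHCB4.1 read 12.55 to 12.98 and the root and hypocotyl beta-glucosidase PYK10 read 12.73 to 13.06 on the 12 arrays, so both shoot and root RNA were present. The root hair expansins had lower group means in the double mutant with and without IAA: EXPA7 had group means of 7.67 and 7.99 in arf19-1 without and with IAA against 6.76 and 6.56 in the double mutant, and EXPA18 had 8.28 and 8.20 against 7.29 and 7.28. The light-harvesting gene LHCB4.3 had 7.41 and 7.23 in arf19-1 against 8.05 and 8.25 in the double mutant. Of the 3 tested root markers and the 3 tested light-harvesting markers, 0 had a called ARF7 share, with values from -0.52 to 0.38, and their part in the other results was not tested. In whole seedlings, fewer cells of a type and less RNA per cell cannot be told apart.

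Where the auxin responses of the 2 lines differed by the test, the one in arf19-1 was mostly the larger. Of 15757 probe sets tested, 562 (3.57%) had a called ARF7 share, which means a Benjamini-Hochberg adjusted p under 0.05 from limma. In 353 (2.24%) the share was negative and in 209 (1.33%) positive, and 1787 probe sets had an unadjusted p under 0.05. All 353 probe sets with a negative share had higher mean signal with IAA in arf19-1. Their median response was 1.12 on the log2 scale in arf19-1 and 0.03 in the double mutant, and 299 of the 353 kept less than 25% of the log2 response. Of the 209 with a positive share, 204 had lower mean signal with IAA in arf19-1, and the median response was -0.83 there and -0.02 in the double mutant. These medians describe probe sets picked by the same contrast and test nothing.

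**Figure D1:**
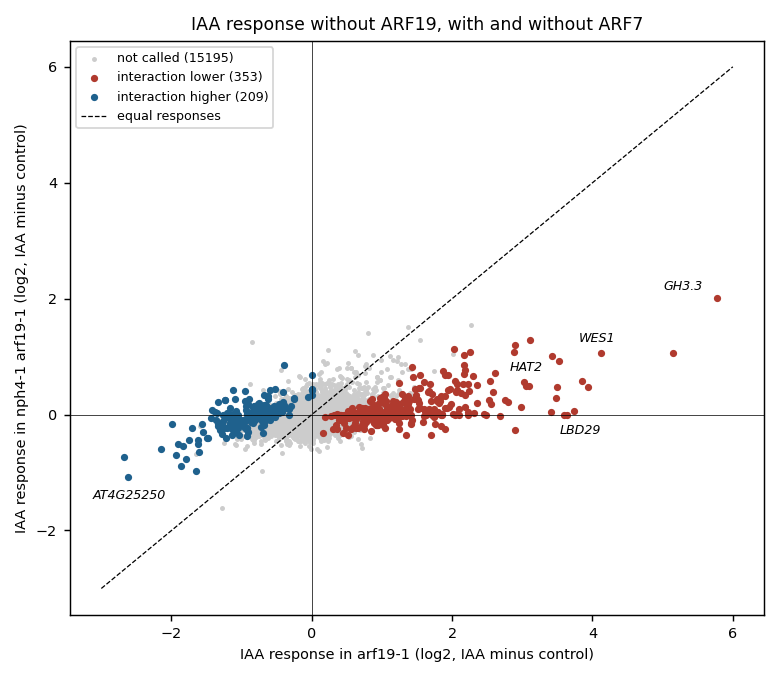
IAA response of every tested probe set in arf19-1 (x axis, log2, IAA minus control) against that in nph4-1 arf19-1 (y axis, log2). Red points are the 353 probe sets with a called negative ARF7 share, blue points the 209 with a called positive share, grey points the 15195 without a call, and the dashed line marks equal responses. Red and blue points spread along the x axis and lie near 0 on the y axis, and GH3.3 is the farthest to the right, at 5.78 and 2.00.

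More probe sets passed the test of the IAA response in arf19-1 than in the double mutant, and these counts do not measure how much response was lost. IAA changed 1592 probe sets (10.1%) in arf19-1, of which 770 (4.89%) rose and 822 (5.22%) fell. In the double mutant it changed 66 (0.419%), of which 53 (0.336%) rose and 13 (0.0825%) fell, and 737 had an unadjusted p under 0.05. Both counts use arrays of the interaction itself and are its parts.

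A selection of probe sets on the Col arrays alone, made after the values were seen, shows how much of the wild-type response each mutant kept. The 293 probe sets that IAA raised at least 2-fold in Col had a median response of 1.44 there, 1.31 in arf19-1, 0.54 in nph4-1 and 0.14 in the double mutant. The medians of arf19-1, nph4-1 and the double mutant were thus 90.7%, 37.8% and 9.54% of the Col median. Of these 293, 209 (71.3%) had a called negative ARF7 share against 2.24% of all tested, and 0 had a called positive one. IAA changed 270 of them in arf19-1 and 29 in the double mutant. The 112 probe sets lowered at least 2-fold in Col had medians of -1.21, -1.13, -0.39 and -0.20 in the same order of lines, and 73 of them (65.2%) had a called positive share against 1.33% of all tested. Since the Col response picked these probe sets, its own median is a description only and tends to be too large in size. The percentages of the Col median thus tend to be too low as shares kept. At the floor in every double mutant array were 47 of the 293.

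The lost rises are described here by the deposited signal of the lines without and with IAA. The floor can shrink the untreated difference, so these values do not show in which level the loss lay. Of the 353 probe sets with a negative share, 333 differed more between the lines with IAA than without it. Their median difference, double mutant minus arf19-1, was 0.00 without IAA and -1.12 with IAA. In 40 of them arf19-1 with IAA was the one group above the floor, and 52 were at the floor in all 6 double mutant arrays. For those 40 the untreated difference of 0.00 is set by the floor and cannot show whether the starting levels differed. At the floor no level is measured, so the double mutant's response there is unknown below 50 linear units, and a group at the floor shows no spread, which lowers the error of the fit. Above the floor on all 12 arrays were 224 of the 353, and the median differences were not taken for these alone. The losses reached at least 2-fold in 196 and at least 4-fold in 39.

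Among the GH3 genes, whose enzymes join amino acids to auxin and other hormone acids, 3 of 4 tested had a called negative share and 0 a positive one, beside 2.24% and 1.33% of all tested. The list's median share was -2.57, against 0.01 over all tested probe sets. GH3.3 (AT2G23170), which forms amino acid conjugates of IAA, read 7.47, 7.65 and 6.97 in arf19-1 without IAA and 13.22, 13.14 and 13.07 with it. The double mutant gave 9.94, 10.03 and 9.94 without IAA and 11.88, 11.97 and 12.08 with it. The 4 groups did not overlap, and the double mutant was the higher line without IAA and the lower line with it. The response was 5.78 in arf19-1 and 2.00 in the double mutant, a share of -3.78 ± 0.25 (SE, n = 3 arrays per group, limma adjusted p = 1.9e-09), or 13.7-fold. Of that share, 2.61 was a higher level in untreated double mutant seedlings and 1.17 a lower level after IAA, and both differences passed the test (limma adjusted p = 4.5e-09 and 5.1e-05). The highest signal of any probe set on any array was 13.5, so the treated arf19-1 arrays were close to the top of the scale for this gene.

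WES1 (AT4G27260, also called GH3.5), which acts on both IAA and salicylic acid, read 7.25, 8.14 and 8.25 in untreated arf19-1 and 11.99, 11.88 and 12.12 after IAA. The double mutant gave 6.96, 7.29 and 7.21 without IAA and 7.74, 8.40 and 8.53 with it. The untreated groups overlapped and the treated groups did not. The share was -3.05 ± 0.52 (limma adjusted p = 0.00075), and the remaining response of 1.07 in the double mutant did not pass the test (limma adjusted p = 0.54). GH3.1 (AT2G14960) rose from the floor on all 3 arrays to 7.63, 7.48 and 8.13 in arf19-1, at least 4.30-fold, and was at the floor on each of the 6 double mutant arrays (limma adjusted p of the share = 7.6e-06). GH3.17, the remaining tested member, had a share of -0.13 with no call.

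Both tested LBD genes, transcription factors that act in lateral root initiation, had a called negative share, beside 2.24% of all tested. The list matched no other LBD gene, so this count shows nothing about the rest of the family. LBD29 (AT3G58190) lay at the floor on all 3 untreated arf19-1 arrays, read 9.26, 9.21 and 9.36 after IAA, and lay at the floor on all 6 double mutant arrays. It therefore rose at least 12.4-fold in arf19-1, with a share of -3.63 ± 0.16 (limma adjusted p = 3.1e-12). LBD16 (AT2G42430) read 6.41, 6.31 and 6.33 without and 8.25, 8.25 and 8.32 with IAA in arf19-1. For the double mutant LBD16 was read at 6.25, 6.59 and 6.50 without and 6.70, 6.29 and 6.71 with IAA, groups that overlap each other. Its share was -1.81 ± 0.19 (limma adjusted p = 1.6e-06). The lateral root list held both LBD genes and 2 more, the AP2-type factor PUCHI with a share of -0.30 and the receptor kinase CR4 with -0.07, neither called. PUCHI responded by 1.45 in Col, 0.76 in nph4-1, 0.30 in arf19-1 and 0.00 in the double mutant. Little of its rise was thus left in arf19-1 to be lost, and its share with ARF19 present was -0.69.

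**Figure D2:**
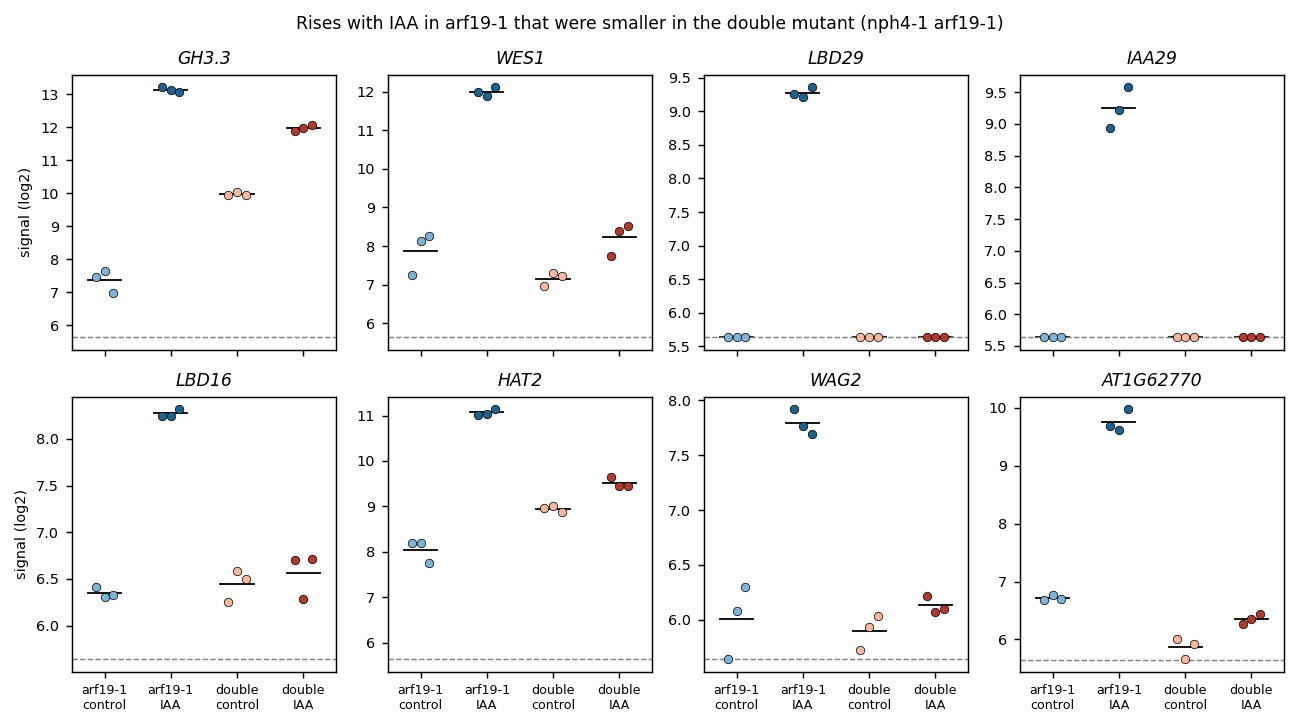
Signal (log2, y axis) of 8 genes with a called negative ARF7 share on each of the 12 arrays, in untreated and IAA-treated arf19-1 (light and dark blue) and nph4-1 arf19-1 (light and dark red). Points are arrays, short lines are means of 3 arrays, the dashed line is the floor at 5.64, and the y axes differ between panels. In each panel the treated arf19-1 arrays lie above all others, LBD29 and IAA29 stay at the floor in the double mutant, and the untreated double mutant lies above untreated arf19-1 for GH3.3 and HAT2.

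Of 5 tested Aux/IAA repressor genes, 2 had a called negative share and 0 a positive one, beside 2.24% and 1.33% of all tested. IAA29 (AT4G32280) went from the floor on all untreated arf19-1 arrays to 8.93, 9.22 and 9.58 with IAA, a rise of at least 12.1-fold. It stayed at the floor on all 6 double mutant arrays, with a share of -3.60 ± 0.20 (limma adjusted p = 8.9e-11). IAA30 (AT3G62100) rose from the floor to 6.93, 6.59 and 7.33 in arf19-1, while 5 of the 6 double mutant arrays lay at the floor and the other read 5.88. Its share was -1.23 ± 0.21 (limma adjusted p = 0.00089). IAA18, IAA34 and IAA20 had shares of -0.42, 0.00 and 0.00 with no call, and IAA20 and IAA34 showed responses of 0.00 in both lines. Genes at the floor would give the same value, so IAA20 and IAA34 are not read as lacking a response.

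HAT2 (AT5G47370), an auxin-induced homeodomain-leucine zipper factor, was also higher in the untreated double mutant. It read 8.19, 8.19 and 7.75 in untreated arf19-1 and 8.96, 9.0 and 8.88 in the untreated double mutant, and the groups did not overlap. With IAA it reached 11.02, 11.04 and 11.14 in arf19-1 and 9.64, 9.45 and 9.45 in the double mutant. The share was -2.46 ± 0.16 (limma adjusted p = 1.9e-09), made of a 0.90 higher untreated level and a treated level lower by 1.56. HAT2 kept a rise of 0.56 in the double mutant (limma adjusted p = 0.026). PHV, the other tested factor of this class, had a share of 0.12 with no call.

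WAG2 (AT3G14370), a kinase that phosphorylates PIN auxin efflux carriers, was the one tested gene of the auxin transport list. It read 5.64, 6.08 and 6.30 without and 7.92, 7.77 and 7.69 with IAA in arf19-1, against 5.72, 5.93 and 6.03 without and 6.22, 6.07 and 6.10 with IAA in the double mutant. The treated arf19-1 arrays stood above all others, and the share was -1.55 ± 0.29 (limma adjusted p = 0.0019). YUC6, an enzyme of auxin synthesis, had a response of -0.85 in arf19-1 and -0.35 in the double mutant, and its share of 0.50 was not called (limma adjusted p = 0.42).

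Single genes of other hormone pathways followed. RR16 (AT2G40670), a type-A response regulator of cytokinin signalling, rose from the floor to 5.93, 6.18 and 6.40 in arf19-1 and lay at the floor on all 6 double mutant arrays, with a share of -0.53 ± 0.10 (limma adjusted p = 0.0031). These readings lie close to the floor, so the size of the rise is a lower bound. RTE1 (AT2G26070), which promotes signalling by the ethylene receptor ETR1, read 8.11, 8.08 and 8.02 without and 9.01, 9.08 and 8.82 with IAA in arf19-1. In the double mutant all 6 arrays read between 7.90 and 8.26, and the share was -0.82 ± 0.13 (limma adjusted p = 0.00043). The second tested gene of each list was not called: ARR15 had a share of -0.04 and the ethylene factor EIN3 one of -0.19.

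Cell wall families had few called members each. Of 9 tested XTH genes, whose enzymes cut and rejoin xyloglucan, 2 had a called negative share and 0 a positive one, beside 2.24% negative and 1.33% positive over all tested probe sets. This background applies to each family count that follows, and counts of 1 or 2 show nothing particular to a family. XTH33 (AT1G10550) read 5.97, 5.94 and 5.71 without and 6.90, 6.92 and 6.87 with IAA in arf19-1, and all 6 double mutant arrays lay between 5.64 and 5.67. Its share was -1.01 ± 0.15 (limma adjusted p = 0.00014). XTH19 (AT4G30290) read 9.15, 9.27 and 9.14 with IAA in arf19-1 against 7.35, 7.67 and 7.67 in the double mutant, with a share of -1.19 ± 0.28 (limma adjusted p = 0.014). Without the second untreated double mutant array the adjusted p of XTH19 was 0.052.

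Of 13 tested expansins, proteins that loosen the wall, 1 had a negative and 1 a positive called share. EXPA4 (AT2G39700) was read at 10.04, 9.71 and 9.33 without and 10.97, 10.99 and 11.15 with IAA in arf19-1. In the double mutant it was read at 10.41, 10.15 and 10.18 without IAA and 10.57, 10.42 and 10.50 with it. Its share of -1.09 ± 0.29 (limma adjusted p = 0.035) lost its call in 11 of 12 omissions of 1 array, where the adjusted p reached 0.11. EXPA8 had a share of -1.33 that was not called (limma adjusted p = 0.063).

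One called member came from each of several further wall families. GH9B13 (AT4G02290), of the GH9 glucanase family, was called in 1 of 8 tested members, with responses of 1.44 in arf19-1 and 0.64 in the double mutant. Its share was -0.80 ± 0.20 (limma adjusted p = 0.022), and the remaining rise in the double mutant passed its own test (limma adjusted p = 0.042). CSLC5 (AT4G31590), a synthase of the xyloglucan backbone, was 1 of 6 tested members of its family. Its signal of 9.03, 9.06 and 9.08 in treated arf19-1 stood above that of the other 9 arrays, which lay between 7.64 and 8.23, with a share of -1.16 ± 0.27 (limma adjusted p = 0.015). Leaving out 1 array ended the call of GH9B13 in 6 of 12 cases (adjusted p up to 0.068) and that of CSLC5 in 2, the first untreated arf19-1 array (0.056) and the first treated double mutant array (0.055).

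The list of pectin methylesterases and their inhibitors, matched by symbol, had 0 of 4 tested members called. It misses genes annotated by locus name, among them AT1G62770 and AT4G25250 described further on and the pectin methylesterase gene AT2G47550, with a share of -0.84 (limma adjusted p = 0.0055), and all 3 were called. Its 2 named members had shares of opposite sign without a call: ATPMEPCRB had a share of -0.73 (limma adjusted p = 0.051) and ATPMEPCRD one of 0.62 (limma adjusted p = 0.35). The class III peroxidases matched by symbol had 0 of 4 called, with AT5G64120 at -0.80 (limma adjusted p = 0.084) and AT2G41480 at 0.16. AT2G18980, a class III peroxidase gene that the symbols miss, had a called share of -0.72 (limma adjusted p = 0.0036).

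A further 7 genes with only a locus name were among the 12 named probe sets with the most negative shares. AT1G62770, a predicted inhibitor of pectin methylesterase or invertase, read 6.69, 6.77 and 6.70 without and 9.69, 9.62 and 9.98 with IAA in arf19-1. The double mutant read 6.0, 5.66 and 5.93 without and 6.27, 6.35 and 6.44 with IAA. All 6 double mutant arrays lay below the 6 arf19-1 arrays, the untreated level was lower by 0.86 on the log2 scale (limma adjusted p = 3.9e-05), and the share was -2.55 ± 0.16 (limma adjusted p = 1e-09). AT1G64405, AT5G62280, AT5G57760, AT3G26760, AT2G39980 and AT4G35720 had shares of -2.71, -2.60, -2.58, -2.51, -2.28 and -2.27. In each of these 6 genes the treated groups of the lines did not overlap, and the double mutant's responses, from -0.02 to 0.49, did not pass the test. In the double mutant AT5G57760 lay at the floor on 3 untreated and 1 treated arrays, and AT4G35720 on 2 and 2. The floor therefore limits the responses and shares of these 2 genes. AT1G64405 and AT5G62280 each had 1 untreated double mutant array at the floor, whereas AT3G26760 and AT2G39980 had none.

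The lost falls were smaller, and they are described here by whether the lines differed more with or without IAA. This order is a description, and no grouping was tested. Of the 209 probe sets with a positive share, 58 reached at least 2-fold and 0 reached 4-fold. In 148 of them the lines differed more with IAA than without it, and in 61 more without it. The median difference, double mutant minus arf19-1, was -0.16 without IAA and 0.63 with it. Above the floor on all 12 arrays were 181 of the 209.

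AT4G30460, a glycine-rich protein gene, was among those that differed more with IAA. It read 7.22, 7.09 and 7.67 in untreated arf19-1 and 5.80, 6.10 and 6.02 after IAA, while the 6 double mutant arrays lay between 7.23 and 7.53. The untreated groups overlapped, the treated groups did not, and the share was 1.38 ± 0.21 (limma adjusted p = 0.00025). SWEET17 (AT4G15920), a vacuolar fructose transporter and the 1 called gene of 8 tested SWEET genes, fell from 8.49, 8.53 and 8.62 to 7.80, 7.73 and 7.89 in arf19-1. The double mutant gave 8.95, 9.08 and 8.97 without and 8.85, 9.06 and 9.20 with IAA, above every arf19-1 array. The share of SWEET17 was 0.78 ± 0.14 (limma adjusted p = 0.001). SWEET17 was higher in the double mutant by 1.23 with IAA and also by 0.45 without it (limma adjusted p = 0.0045 without IAA).

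UGT74B1 (AT1G24100), a glucosyltransferase of glucosinolate synthesis, fell from 10.10, 10.21 and 10.09 to 9.41, 9.54 and 9.32 in arf19-1 and read between 10.08 and 10.34 on all double mutant arrays. Its share was 0.70 ± 0.12 (limma adjusted p = 0.001). In the same family UGT76D1 (AT2G26480) went the other way: it rose from the floor to 6.64, 6.50 and 6.67 in arf19-1 and reached at most 5.67 in the double mutant, with a share of -0.95 ± 0.13 (limma adjusted p = 6.8e-05). These were the 2 called genes of 34 tested glycosyltransferases, a count near the 3.57% called over all tested probe sets. The cytochrome P450 gene CYP71B37, 1 called of 9 tested CYP71B genes, had a share of 0.81 (limma adjusted p = 0.031), and TBL25, of a family that acetylates wall polymers and 1 called of 18 tested probe sets, had one of 0.50 (limma adjusted p = 0.047). Leaving out 1 array ended both calls in 10 of 12 cases, where the adjusted p reached 0.084 and 0.16. AT2G28780 fell from 7.06, 7.07 and 6.35 to the floor on all 3 arrays in arf19-1, at least 2.27-fold, and the 6 double mutant arrays lay between 6.91 and 7.41. The share of AT2G28780 was 1.2 ± 0.29 (limma adjusted p = 0.022), a call that ended in 7 of 12 omissions (adjusted p up to 0.075).

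In other genes the lines differed more without IAA, and the untreated level of the double mutant was already lower. AT3G45700, of the nitrate and peptide transporter family, fell from 8.76, 8.61 and 8.67 to 6.84, 6.95 and 6.76 in arf19-1. In the double mutant it read 7.10, 7.40 and 7.10 without and 6.74, 6.71 and 6.52 with IAA. The untreated double mutant was lower by 1.48 on the log2 scale (limma adjusted p = 2.6e-05), whereas the treated lines differed by -0.19, which did not pass the test (limma adjusted p = 0.63). Its share was 1.29 ± 0.26 (limma adjusted p = 0.0047). EXPB1 (AT2G20750), a beta-expansin, fell from 7.15, 6.88 and 6.90 to the floor on all 3 arrays in arf19-1, and read 5.94, 5.90 and 5.90 without and 5.64, 5.79 and 5.72 with IAA in the double mutant. Its share was 1.14 ± 0.17 (limma adjusted p = 0.00019), and the size of its fall in arf19-1 is limited by the floor. The untreated double mutant, with a mean of 5.91, lay so close to the floor that a larger fall could not be read. The share of EXPB1 therefore has no measured size and does not show whether its fall was lost. AT2G16980 had a similar form, lower by 0.80 in the untreated double mutant and 0.39 higher after IAA, the latter without a call (limma adjusted p = 0.1).

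In AT1G72200, of the RING finger class, and AT3G20015, of the aspartyl protease class, the double mutant had lower means without IAA and higher means with it. The differences, double mutant minus arf19-1, were -0.88 and 0.96 for AT1G72200 and -0.56 and 0.93 for AT3G20015. AT1G72200 had the largest positive share among named genes, 1.84 ± 0.26 (limma adjusted p = 8.6e-05). It fell from 8.12, 7.85 and 7.98 to 5.90, 6.04 and 6.02 in arf19-1 and read 7.40, 7.13 and 6.79 without and 7.22, 6.70 and 6.93 with IAA in the double mutant. Its double mutant groups overlapped each other and lay between the arf19-1 groups. AT3G20015 fell from 8.45, 8.09 and 8.06 to 6.68, 6.78 and 6.89 in arf19-1 and read 7.54 to 7.95 on the 6 double mutant arrays, with a share of 1.49 ± 0.24 (limma adjusted p = 0.0004).

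**Figure D3:**
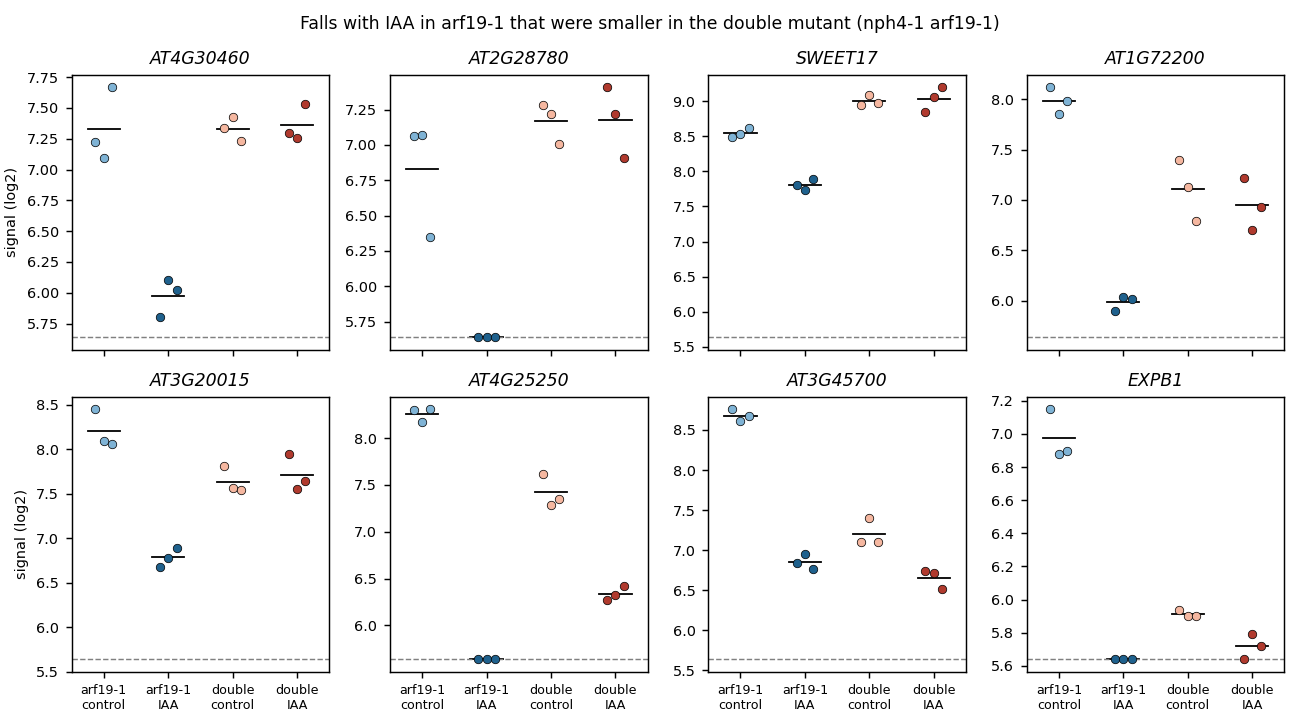
Signal (log2, y axis) of 8 genes with a called positive ARF7 share on each of the 12 arrays, in the same groups and colours as the plot of lost rises. Points are arrays, short lines are means of 3 arrays, the dashed line is the floor at 5.64, and the y axes differ between panels. AT4G30460, AT2G28780 and SWEET17 stay high in the double mutant with IAA, AT3G45700 and EXPB1 are already low there without IAA, and AT4G25250 still falls.

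AT4G25250, a predicted inhibitor of pectin methylesterase or invertase, kept part of its fall. It read 8.30, 8.17 and 8.31 without IAA and lay at the floor on all 3 treated arrays in arf19-1, a fall of at least 6.12-fold. In the double mutant it read 7.62, 7.29 and 7.35 without and 6.27, 6.32 and 6.42 with IAA, a fall by 1.08 on the log2 scale that passed its own test (limma adjusted p = 7.6e-05). The share was 1.53 ± 0.17 (limma adjusted p = 5.7e-06), a lower bound because of the floor in treated arf19-1.

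A larger response in the double mutant was rare among the calls. It occurred in 1 of the 353 probe sets with a negative share and in 9 of the 209 with a positive one, of which AT1G54020, of the GDSL lipase class, was the only one paired with 1 gene. AT1G54020 read 6.33, 5.69 and 5.76 without and 6.49, 7.35 and 6.49 with IAA in the double mutant, against 6.28, 6.33 and 6.18 without and 5.96, 5.99 and 5.68 with IAA in arf19-1. The treated groups did not overlap. Its share of 1.24 ± 0.33 (limma adjusted p = 0.038) lost its call in 9 of 12 omissions (adjusted p up to 0.12), and neither line's response passed its own test (limma adjusted p = 0.44 in arf19-1 and 0.21 in the double mutant).

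Matched by symbol, the lists of rapid stress genes, WRKY factors and hypoxia genes had 0 of 8, 0 of 6 and 0 of 1 tested members called. Beside 3.57% of all tested probe sets, counts of 0 in lists this short say nothing about their members. STZ, a zinc finger repressor of stress responses, had responses of 1.37 in arf19-1 and 1.52 in the double mutant, with a share of 0.15 and no call. AR781 read 6.54, 6.44 and 6.44 without and 6.73, 6.51 and 6.88 with IAA in arf19-1, and 6.82, 6.39 and 6.56 without and 7.73, 7.55 and 7.83 with IAA in the double mutant. AR781 rose in the double mutant by 1.11 (limma adjusted p = 0.0034), while its share of 0.88 did not pass the test (limma adjusted p = 0.067). CML38, a calmodulin-like protein gene, had a share of 0.68 (limma adjusted p = 0.44), WRKY53 one of -0.50 (0.7), WRKY47 one of 0.14 and the pyruvate decarboxylase gene PDC2 one of 0.29, all without a call.

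The remaining lists also had 0 calls, beside 3.57% of all tested probe sets: the tau glutathione transferases in 9 tested members, with shares from -0.63 to 0.82, the beta-glucosidases in 10, from -0.32 to 0.34, and the tetraspanins in 7, from -0.03 to 0.50. In the first of these lists GSTU26 had a share of 0.82 (limma adjusted p = 0.1) and GSTU16 one of -0.63 (limma adjusted p = 0.068). The beta-glucosidases with the largest shares were BGLU40 at 0.34 and BGLU16 at 0.33, and the tetraspanins TET2 and TET3 had 0.50 and 0.33. The ribosomal list matched 1 gene, AT1G77750, with a share of 0.07. The lists of SAUR genes, of auxin receptors and ARFs, of gibberellin and brassinosteroid metabolism and of the cell cycle had no tested member.

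With ARF19 present, the nph4-1 mutation acted in the same direction on most of these probe sets. The response of nph4-1 minus that of Col was called in 446 probe sets (2.83%), 263 lower (1.67%) and 183 higher (1.16%), on arrays that the first contrast does not use, although both share the pooled estimate of spread. Of the 353 probe sets with a negative ARF7 share without ARF19, 337 were negative and 179 (50.7%) were called negative with ARF19 present. Of the 209 with a positive share, 194 were positive and 77 (36.8%) were called positive. Over all tested probe sets, 46.8% were negative and 53.2% positive with ARF19 present. None of the 562 was called in the opposite direction. The 256 shared calls are 45.6% of the 562 and 57.4% of the 446. When the 12 arrays of each contrast were fitted apart, 163 calls were shared. Across the 562 probe sets the 2 shares had a Pearson correlation of 0.86, and of 0.63 within the negative and 0.49 within the positive ones, against 0.56 over all 15757 tested. These are descriptions, since probe sets of the same arrays are not independent and the 562 were picked by 1 of the 2 shares.

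With ARF19 present the median shares were closer to 0. The median share of the 353 probe sets was -0.72 with ARF19, against -1.07 without it, and that of the 209 was 0.50 against 0.82. Since the larger value picked these probe sets, this gap is a description and no test. Per gene, LBD29 had a share of -3.02 with ARF19 and -3.63 without, IAA29 -2.96 and -3.60, GH3.1 -2.32 and -2.10, AT1G62770 -2.29 and -2.55, HAT2 -1.84 and -2.46, and AT1G72200 1.78 and 1.84. All 6 were called in both. LBD16 was called only without ARF19, at -1.81 against -0.56 with it (limma adjusted p = 0.14), and the test of the difference gave -1.25 with an adjusted p of 0.061. WES1, IAA30 and WAG2 were likewise called only without ARF19, with shares of -1.68, -0.66 and -1.03 in its presence, and their tests of the difference did not pass.

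**Figure D4:**
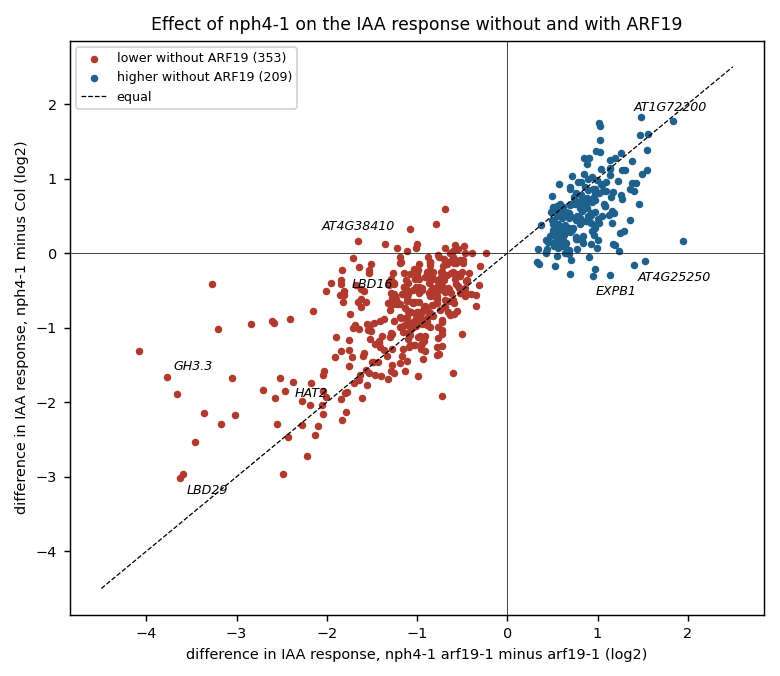
ARF7 share of the IAA response without ARF19 (x axis, nph4-1 arf19-1 minus arf19-1, log2) against that with ARF19 (y axis, nph4-1 minus Col, log2) for the 562 probe sets called without ARF19. Red points are the 353 negative and blue points the 209 positive shares, and the dashed line marks equal values. Most points share their sign on both axes (337 red and 194 blue), GH3.3 lies far above the line, and EXPB1 and AT4G25250 lie just below 0 on the y axis.

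A test of the difference between the 2 shares called 28 probe sets (0.178%), 13 lower (0.0825%) and 15 higher (0.0952%), with 824 at an unadjusted p under 0.05. A negative value here means that the double mutant's response was lower than the changes in the 2 single mutants added together would give. All 13 with a negative difference also had a called negative share without ARF19, a count that the shared arrays favour. Paired with 1 gene were 12 of the 28.

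GH3.3 had the most negative difference among them, -2.11 ± 0.35 (limma adjusted p = 0.01). Its response was 5.63 in Col, 5.78 in arf19-1, 3.97 in nph4-1 and 2.00 in the double mutant. AT4G38410, a dehydrin gene, responded by 1.59 in Col, 1.75 in nph4-1 and 2.05 in arf19-1, but by 0.39 in the double mutant. Its share was therefore 0.16 with ARF19 and -1.66 without it, and the difference was -1.82 ± 0.32 (limma adjusted p = 0.014). AT1G23340 responded by 0.52 in Col, 1.12 in nph4-1, 1.24 in arf19-1 and 0.55 in the double mutant, with a difference of -1.28 ± 0.23 (limma adjusted p = 0.017). Its untreated arrays were at the floor in Col, nph4-1 and arf19-1, and 2 of 3 were in the double mutant, so these sizes are limited by the floor. With IAA, the mean signal of AT1G23340 was 6.17 in Col, 6.76 in nph4-1 and 6.89 in arf19-1. The responses of these lines cannot be ranked, since their untreated levels are not measured. The share of AT1G23340 without ARF19, -0.69, lost its call without the second untreated double mutant array (adjusted p = 0.061).

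Among the falls, AT4G25250 responded by -2.29 in Col, -2.40 in nph4-1, -2.61 in arf19-1 and -1.08 in the double mutant. EXPB1 responded by -0.77, -1.07, -1.33 and -0.20 in the same lines. Both were called in the test of the difference, but the floor limits it. AT4G25250 was at the floor on all 3 treated arrays of Col, nph4-1 and arf19-1, so these 3 falls are lower bounds. EXPB1 was at the floor on 2 of 3 treated arrays in Col and in nph4-1, on 3 of 3 in arf19-1 and on 1 of 3 in the double mutant. Neither difference has a measured size, and the fitted values listed further on are not sizes. In both genes the fall passed the test in each single mutant. AT2G23060, of the N-acetyltransferase superfamily, rose by 1.41 in Col and by 0.00, 0.03 and 0.00 in nph4-1, arf19-1 and the double mutant. This gene was above the floor on 4 of the 24 arrays, all 3 treated Col arrays and 1 treated arf19-1 array at 5.73. The responses outside Col are therefore not measured, and groups without spread set the error of its called difference. No p is given for that difference, and its fitted value listed further on is not a measured size.

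**Figure D5:**
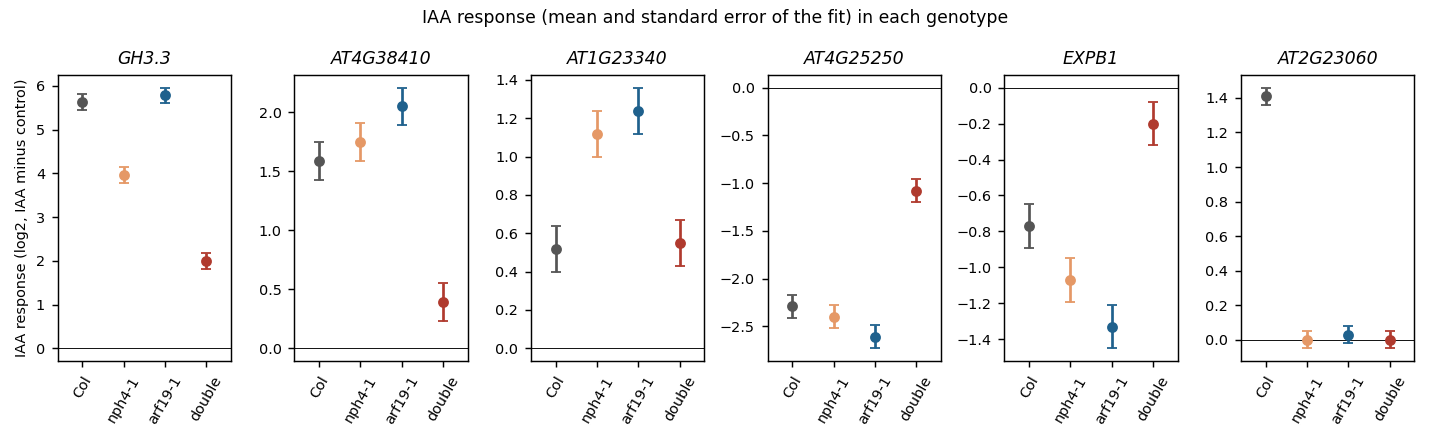
IAA response (log2, IAA minus control) in Col, nph4-1, arf19-1 and nph4-1 arf19-1 of the 6 named genes with the most negative and most positive called difference between the ARF7 shares. Points are fitted means of 3 against 3 arrays, bars are standard errors of the limma fit, and the y axes differ between panels. The response lies nearest to 0 in the double mutant for AT4G38410, AT4G25250 and EXPB1, is 2.00 there for GH3.3, and for AT2G23060 is 1.41 in Col and at most 0.03 in the other lines. Floor values limit the last 4 panels.

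Of the 562 called probe sets 260 were paired with 1 gene, 6 with several and 296 with none in the annotation used, so named genes stand for fewer than 50% of the calls. Of the 50 most negative shares 19 had 1 gene. The most negative of all, -4.08 (limma adjusted p = 1.8e-07), belonged to a probe set that is unnamed here and responded by 5.14 in arf19-1 and 1.06 in the double mutant. The most positive, 1.94 (limma adjusted p = 8.9e-06), belonged to another unnamed probe set, which responded by -2.67 in arf19-1 and -0.73 in the double mutant.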

How the data were processed

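The authors deposited each array as log2 signal per probe set, with a floor at 5.64, and the summarisation and scaling method is not given in the sources used here. Of 22810 probe sets, 64 controls and 6989 at the floor on all 24 arrays were left out, and 15757 were tested as deposited. Names come from the platform annotation, where 13513 probe sets have 1 gene, 503 have more than 1 and 8794 are not listed. RefSeq TAIR10.1 holds 13436 of the 13513. Of the tested probe sets 8616 had 1 gene.

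limma 3.58.1 in R 4.3.3 fitted 8 group means to all 24 arrays (lmFit, eBayes with trend and robust, 16 residual degrees of freedom). The arrays outside a contrast add only to its estimate of spread. Tests are two-sided, with Benjamini-Hochberg adjustment over all tested probe sets at 0.05, and errors are standard errors of this fit. The steps were tested on simulated data. Whether a group's 3 arrays come from separate cultures is not stated in the labels, so p-values may cover technical spread only, and the number of arrays limits the precision. No pair of arrays shared more than 0.021% of its values above the floor.

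Named genes have 1 gene in the annotation. They are the 12 most negative and 8 most positive called shares, then the 6 most negative and 6 most positive above the floor on all 12 arrays. From each of 32 gene lists come up to 4 called members, or the 2 largest where none was called. The 3 most negative and 3 most positive differences of shares complete the rule, giving 61 genes. Other genes and probe sets named in the text were chosen after their values were seen. The members and lists were chosen with earlier results of these data known. Alternatives changed the normalization, the filters, the moderation of the variance, the arrays fitted, array weights, a replicate block, the threshold and a minimum fold, and left out each array.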

Additional observations from a re-analysis of the deposited data

Results flagged for a closer look

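The test of the difference between the ARF7 shares without and with ARF19 called 12 named genes (limma, adjusted over all tested probe sets). Where whole groups lay at the floor, a call does not show that the effect of nph4-1 differed. For 6 of them the responses stand above, and the fitted differences on the log2 scale are listed here. They were -2.11 for GH3.3, -1.82 for AT4G38410, -1.28 for AT1G23340, 1.64 for AT4G25250, 1.44 for EXPB1 and 1.39 for AT2G23060. Floor values enter the fits of AT1G23340, AT4G25250, EXPB1 and AT2G23060, so the fitted values of these genes are not measured sizes. AT2G18980, a class III peroxidase gene, had a difference of 1.2 ± 0.20 (limma adjusted p = 0.011). It responded by 0.31 in Col, -1.61 in nph4-1, 0.48 in arf19-1 and -0.24 in the double mutant, so that its share was -1.92 with ARF19 and -0.72 without, the latter also called.

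AT4G37900 had a difference of 0.91, AT5G22430 of 0.68, AT5G54400 of 0.48 and AT5G52890 of 0.44. These 4 genes responded by 1.03, 0.68, 0.55 and 0.44 in Col, and by between 0.00 and 0.11 in the other lines. AT5G22430 and AT5G52890 were above the floor on the 3 treated Col arrays alone, AT5G54400 on 5 and AT4G37900 on 9 of the 24 arrays. AT3G59370 was above it on 6 arrays and AT2G23060 on 4. For these 6 genes, and for AT4G25250, EXPB1 and AT1G23340, floor values enter the fit, so the differences have no exact size and groups without spread lower their errors. GH3.3, AT4G38410 and AT2G18980 were above the floor on all 24 arrays. AT3G59370 had a difference of 0.45 and responded by -0.33 in arf19-1 and by 0.00 in the double mutant. The difference of AT3G59370 lost its call without the first untreated nph4-1 array (adjusted p = 0.051) and without the first treated arf19-1 array (0.055). The other 11 kept their calls in 24 omissions of 1 array each, which adds nothing for genes with whole groups at the floor.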

How the results depend on the processing

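Quantile normalization, a common median, plain eBayes, all probe sets but the controls and a replicate block each left the 562 called ARF7 shares within 1.5 times. The count was 309 with a filter on dim probe sets, 864 (385 higher, 479 lower) with only the arrays compared, 1955 (1036 higher, 919 lower) with array quality weights, 330 at an adjusted p under 0.01 and 254 with a change of at least 2-fold. With weights the higher calls outnumbered the lower. With ARF19 present the 446 became 219 with the dim filter, 291 above the floor on every array, 214 with only the arrays compared, 243 at 0.01 and 183 at 2-fold. The 256 shared calls became 129, 152, 163, 157 and 109 under the same 5 settings. The 28 differences between shares became 10 with the dim filter, 7 above the floor on every array, 43 with array weights and 8 at 0.01. In the settings added after the data were seen, of the 293 probe sets raised in Col, 209 with a negative share became 99 with the dim filter and 121 above the floor on every array, which leave fewer probe sets to test. Of the 112 lowered, 73 became 43 at 0.01 and 43 at 2-fold. Apart from those filters and thresholds, which act by construction, the cause was not tested. Leaving out 1 array gave 420 to 505 calls without ARF19, 327 to 493 with it, 212 to 249 shared, 20 to 36 differences, 189 to 201 of the raised and 54 to 66 of the lowered. Of 39 named calls 30 held in every setting in which they were tested, and the other 9 are given with their genes. The replicate block ended none of the 39 and added calls for ATPMEPCRB (adjusted p = 0.045) and AR781 (0.041). Of 22 named genes without a call, 11 gained one in some setting, all 11 of them with array weights. Of the named calls with ARF19 present, those of AT4G35720, AT3G20015, AT4G30460, AT2G28780, XTH33, CSLC5, UGT74B1 and SWEET17 ended with only the arrays compared (adjusted p from 0.058 to 0.12). The sign turned for AT2G41480 without the third untreated arf19-1 array (-0.06, and up to 0.45 without another), and for AT1G77750 without the first untreated arf19-1 array (-0.06) or the first treated double mutant array (-0.02, and up to 0.21 without another), none of them called. No label says that a replicate number marks a shared culture or day, and not every same-numbered pair had deviations correlated above 0.1, so the numbers were not taken to pair the samples. The 18 same-numbered pairs correlated at 0.00 to 0.57, with a median of 0.24 and 14 above 0.1, against a median of -0.15 for other pairs, and 10 of 12 arrays correlated best with their own number, a hint of pairing from the data. With the replicate block the count was 622 without ARF19 and 26 for the difference between shares.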
